A study of Mus musculus with 9 samples.

Results

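The genes described here, 38 in all, are those of fatty acid uptake, fatty acid oxidation and ketone body metabolism. They were chosen by name from their known roles, with earlier results of these data known. Counts set beside those of all genes therefore describe this list and are not independent support. Of the 38 genes, 37 had a probe set of their own on the array. Each was followed by the probe set that the platform annotation pairs with that gene alone and that had the highest mean over the 9 arrays. All 37 were among the 11006 genes tested, of 18193 genes with a probe set of their own. Acsl1 was not analysed here.

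Fatty acids enter cells through membrane carriers such as CD36 and the fatty acid transport proteins, are joined to coenzyme A, and cross the inner mitochondrial membrane as carnitine esters. In the matrix, rounds of dehydrogenation, hydration, a further oxidation and thiolytic cleavage release acetyl-CoA, and electron transfer flavoprotein passes the electrons of the first step to the respiratory chain. Ketone bodies made elsewhere are turned back into acetyl-CoA by a short mitochondrial route. Parietal cells secrete gastric acid with an ATP-driven proton pump and are packed with mitochondria.

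The samples were stomach cells of C57BL/6 mice in 3 groups of 3, each hybridised to 1 Affymetrix array. The chief group was Mist1+Tomato+ cells from the gastric corpus, named for Mist1, a transcription factor of digestive-enzyme secreting cells, and a Tomato reporter. How the reporter follows Mist1 is not given. The isthmus group was Mist1+Tomato+ corpus cells after Lgr5+ cells had been ablated, and the parietal group was gastric parietal cells. The labels leave out the age of the mice, the alleles, the ablating agent, how the parietal cells were collected, and whether each replicate came from its own animal. Each p-value thus reflects the spread among these arrays alone, and that spread may be technical.

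Values are log2 signals, scaled by the authors to a common mean per array. The median signal of an array was 55.7 to 104 on the linear scale, and a value below its own array's median is called dim here. All 9 parietal markers examined were higher in the parietal group, with a summed linear signal of 78200 to 91500 per array against 18800 to 33700 in chief and 15700 to 30300 in isthmus arrays. Atp4b, the beta subunit of the proton pump, was at 14.30, 14.09 and 14.35 on the parietal arrays and still at 11.97 to 12.80 on the other 6. In cells collected as a bulk sample, fewer cells of a type and less RNA per cell cannot be told apart. Mist1 itself (gene symbol Bhlha15) was at 10.75, 10.05 and 9.20 in chief arrays but at 5.03, 1.34 and 7.36 in isthmus arrays, dim on isthmus replicates 1 and 2.

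Markers of adipocytes, endothelium and macrophages were dim in the parietal arrays. Of 3 adipocyte, 5 endothelial and 6 macrophage markers measured, 0 were above the median of any parietal array. Their summed linear signals there were 26.1 to 54.9, 47.1 to 124 and 53.2 to 83.5. Of 5 muscle markers, 2 were above the median of some parietal array, Acta2 at 6.75 on replicate 1 and Ckm at 6.03 on replicate 2, and the muscle sums were 50.3 to 145 in parietal, 132 to 412 in chief and 75.9 to 91.2 in isthmus arrays. In chief arrays the macrophage sum was 86.6 to 795 and the fibroblast sum 138 to 18800, the highest being chief replicate 3. The fibroblast sum was 65.2 to 232 in parietal arrays, with Col1a1 at 6.93 on replicate 1, and 53.7 to 109 in isthmus arrays. Erythroid markers summed to 2570 to 2880 in parietal, 3920 to 24400 in chief and 3200 to 3430 in isthmus arrays. Among them Hba-a2 was at 11.49, 11.32 and 11.29 on parietal arrays. Neck cell markers summed to 2750 to 7040 in parietal, 13100 to 28100 in chief and 11000 to 13100 in isthmus arrays. Endocrine markers summed to 226 to 588 in parietal arrays against 31700 to 61600 in chief and 16400 to 35600 in isthmus arrays, and pit cell markers to 52200 to 59100 against 104000 to 129000 and 67400 to 80500. Chief cell markers summed to 24700 to 32800 in parietal, 77000 to 102000 in chief and 30700 to 41000 in isthmus arrays. The part of these other cells in the results was not tested.

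Genes of fatty acid uptake, oxidation and ketone body metabolism mostly had a positive difference in parietal cells, 31 of 37 against chief and 30 of 37 against isthmus. About as many were not called as were called. Against chief cells, 18 of the 37 rose and 1 fell at an adjusted p under 0.05 in limma, with a median log2 difference of 0.77. Over all genes tested, 10.7% were called higher and 13.5% lower, with a median difference of -0.103. Against isthmus cells, again 18 rose and 0 fell, with a median of 0.79, while 12.2% of all genes were called higher and 15.4% lower, with a median of -0.093. The 2 comparisons share the parietal arrays, so their counts are not independent. Of the 37 genes, 15 were called higher against both groups. Acads, Acot2 and Slc25a20 were called against chief only and Acad10, Etfb and Hadh against isthmus only, and whether these 6 genes differed between the comparisons was not tested.

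The same picture was visible in the separate arrays. All 3 parietal arrays lay above all 6 others for 20 of the 37 genes (54.1%), against 12.8% of all genes tested. They lay below all 6 for Acsl5 alone, 2.7% against 14.1% of all genes. Against chief alone, the parietal arrays did not overlap with the chief arrays for 22 genes higher and 1 lower, where 18.7% and 21.2% of all genes did so. Against isthmus alone it was 22 higher and 2 lower, where 20.3% and 24.0% of all genes did so. A parietal array held the highest value for 26 genes (70.3%, against 31.2% of all). The count of calls against chief depended on the arrays included and was 12, all higher, without parietal replicate 3. Centring each array on its median, which moved the median difference of all genes from -0.103 to 0.047, gave 23 higher and 0 lower against chief and 20 higher and 0 lower against isthmus. That centring also turned the split over all genes from 1173 higher and 1491 lower to 1524 and 1267 against chief, and from 1339 and 1691 to 1797 and 1357 against isthmus.

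**Figure D1:**
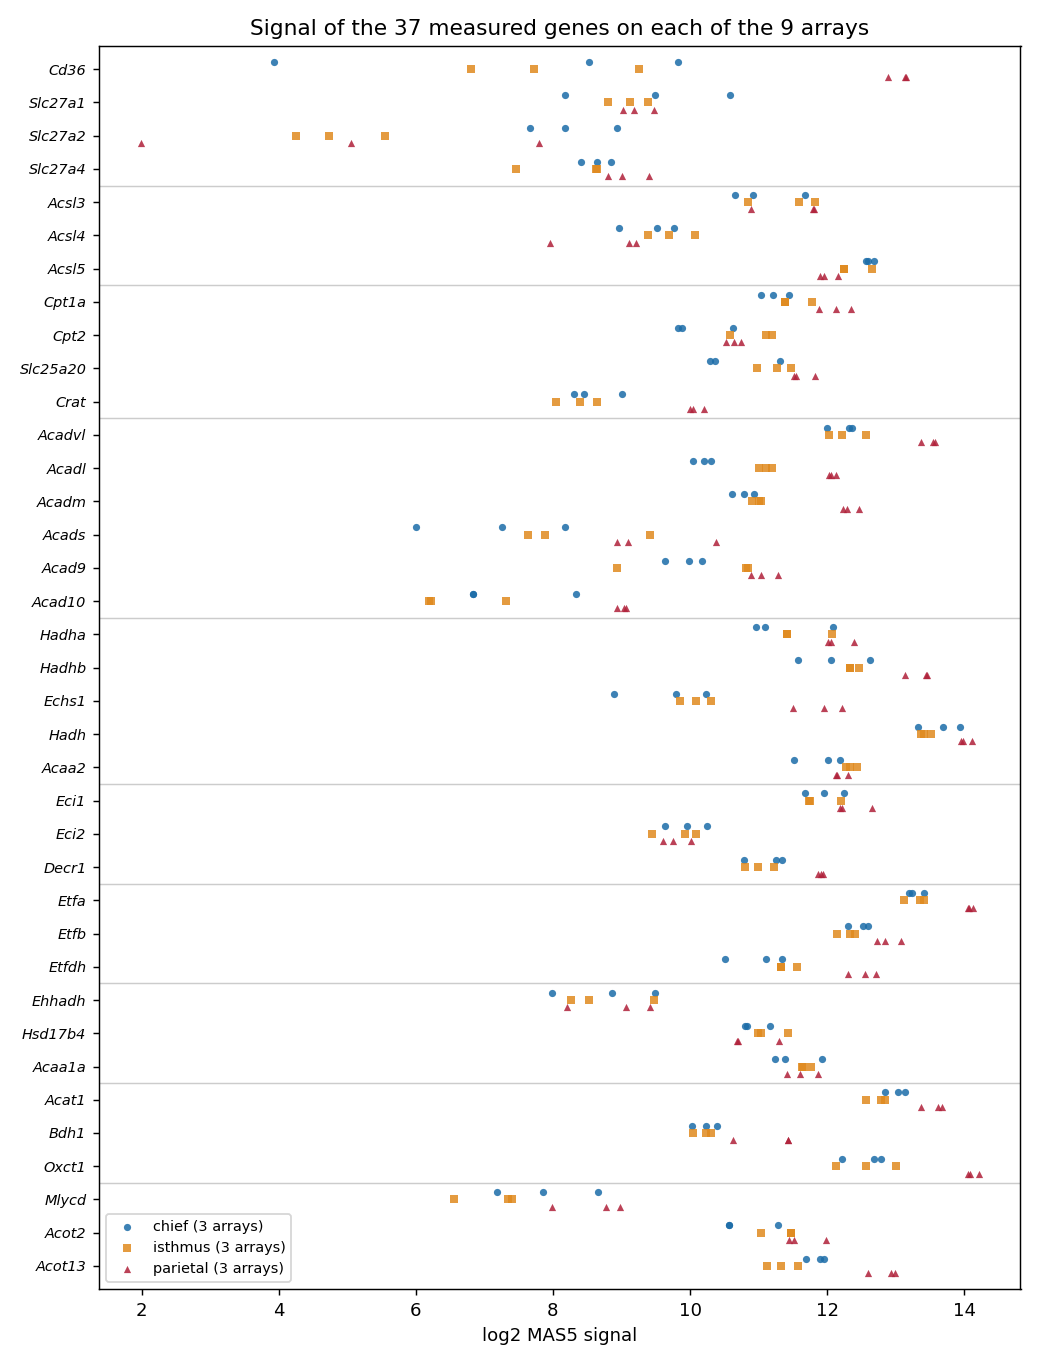
Log2 MAS5 signal (horizontal axis) of each of the 37 genes on each of the 9 arrays, with circles for chief, squares for isthmus and triangles for parietal arrays, and grey lines between roles. The triangles lie to the right of all other symbols for 20 genes, among them Cd36, Acadvl, Acadm and Oxct1, and to the left for Acsl5.

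Promoter windows, 250 bases before to 50 after the transcription start, were given by RefSeq (GRCm38.p6) for 31 of the 38 genes. None of the 31 held the full peroxisome proliferator response element, a direct repeat of AGGTCA with 1 base of any kind between the copies, which 0.0481% of all 27025 genes with a window held. Every motif was searched on both strands. The estrogen-related receptor element TCAAGGTCA (0.466% of all) and the CREB element TGACGTCA (2.03% of all) were also in 0 of the 31, and the E-box CACGTG was in 1, Slc27a1 (3.23%, against 8.09% of all). The hexamer AGGTCA, a core that nuclear receptors of this kind bind and that lies within both receptor elements, was found on either strand in 6 of 31 genes (19.4%), close to the 18.1% of all genes. These were Slc27a2, Acadm, Cd36, Echs1, Acadvl and Cpt1a. Of the 11 genes called higher against both groups and with a window, 5 held the hexamer, as did 1 of the 20 others with a window. This subset was picked by its calls, and the split was not tested. The stretches of the 5 are shown so that the matches can be seen. Capitals mark AGGTCA, or TGACCT where it lies on the opposite strand. Each stretch is 100 bases long and runs 5′ to 3′ along the gene's own strand.
Acadm, chr3:153944794-153944893, minus strand, hexamer from base -249: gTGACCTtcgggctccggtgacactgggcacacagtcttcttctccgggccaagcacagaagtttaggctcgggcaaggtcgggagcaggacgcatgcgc
Cd36, chr5:17836047-17836146, minus strand, hexamer from base -228: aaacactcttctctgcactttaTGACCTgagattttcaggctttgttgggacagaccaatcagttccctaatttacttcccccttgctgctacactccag
Echs1, chr7:140116455-140116554, minus strand, hexamer from base -83: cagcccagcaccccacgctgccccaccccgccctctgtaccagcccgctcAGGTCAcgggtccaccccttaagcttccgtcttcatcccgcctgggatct
Acadvl, chr11:70015466-70015565, minus strand, hexamer from base -87: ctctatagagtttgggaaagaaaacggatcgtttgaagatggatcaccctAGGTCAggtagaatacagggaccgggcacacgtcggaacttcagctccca
Cpt1a, chr19:3323157-3323256, plus strand, hexamer from base -94: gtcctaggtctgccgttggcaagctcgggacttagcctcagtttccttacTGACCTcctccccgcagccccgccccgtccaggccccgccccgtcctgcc
In Echs1 and Acadvl the hexamer lay on the gene's own strand, and in the other 3 on the opposite strand. A match of letters is a description and not a bound site.

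Among the uptake genes, Cd36 stood far above the rest in parietal cells. Cd36 encodes the membrane receptor that takes up long-chain fatty acids, and its log2 signal was 13.15, 12.89 and 13.14 on the parietal arrays. The chief arrays gave 8.52, 3.93 and 9.83 and the isthmus arrays 6.80, 9.26 and 7.73. All parietal arrays were higher than every other array, and the other 6 spread widely, with chief replicate 2 dim. The rise over chief was 5.63 ± 1.13 (log2, SE), at least 27.3-fold with the dim array set at its median (adjusted p = 0.00306). This fold was 14.8 without chief replicate 2 and 46.7 without chief replicate 3. Over isthmus the rise was 5.13 ± 1.13, 35-fold (adjusted p = 0.00463), and 55.5-fold without isthmus replicate 2. Cd36 was called in both comparisons under every one of the 21 alternatives run for it.

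The other Cd36 probe sets gave the same order of groups. Probe set 1423166_at read 11.87, 11.73 and 11.81 on parietal arrays, against 5.04, 5.28 and 7.29 on chief and 3.87, 7.77 and 5.83 on isthmus arrays. Probe set 1450884_at read 11.40, 10.59 and 11.29, against 7.63, 5.68 and 3.42 on chief and 4.98, 6.57 and 6.07 on isthmus arrays. On each of the 3 probe sets every parietal array was above all 6 others.

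The fatty acid transport proteins did not follow Cd36. Slc27a2, which encodes the FATP2 transporter and acyl-CoA synthetase, was at 8.94, 8.18 and 7.66 on chief arrays, 5.55, 4.74 and 4.25 on isthmus and 7.80, 1.99 and 5.05 on parietal arrays. Chief arrays were higher than every isthmus array and overlapped with the parietal ones, which spread from 1.99 to 7.80. The parietal difference from chief was -3.31 (95% interval -5.99 to -0.63, adjusted p = 0.0696). It became -4.74 and passed the threshold without parietal replicate 1 (0.0139), and also passed with 16 or 64 added to the signal (0.0461 and 0.0369). Slc27a1 and Slc27a4, for FATP1 and FATP4, lay between 7.46 and 10.58 on all arrays. Slc27a4 differed between parietal and chief by 0.44 (adjusted p = 0.546) and Slc27a1 by -0.19 (adjusted p = 0.84).

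The long-chain acyl-CoA synthetases, which activate fatty acids, held the only gene called lower. Acsl5, an enzyme of mitochondria and endoplasmic reticulum, was at 12.69, 12.57 and 12.59 on chief, 12.25, 12.25 and 12.65 on isthmus and 12.16, 11.96 and 11.90 on parietal arrays. Each parietal array was below all others. Acsl5 fell by 0.61 against chief (SE 0.16, 1.53-fold, adjusted p = 0.0142), a call that ended without parietal replicate 3 (adjusted p = 0.0566), with centred arrays (0.0606) and without the intensity trend of the variance (0.0935). Against isthmus its difference was -0.38 (adjusted p = 0.0978). Acsl4, which prefers arachidonic acid, was at 7.95, 9.11 and 9.21 on parietal arrays against 8.97 to 10.07 on the others, with differences of -0.66 from chief (adjusted p = 0.313) and -0.96 from isthmus (adjusted p = 0.13). Acsl3, an enzyme of the endoplasmic reticulum and lipid droplets, was between 10.66 and 11.83 on all 9 arrays.

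Of the 4 carnitine shuttle genes, 3 rose against chief and 2 against isthmus. Cpt1a encodes the outer-membrane carnitine palmitoyltransferase that limits entry into mitochondria. Its signal was 11.88, 12.13 and 12.35 on parietal arrays, above the 11.03, 11.44 and 11.21 of chief and the 11.38, 11.38 and 11.78 of isthmus arrays. It rose by 0.89 ± 0.21 against chief (SE, 1.86-fold, adjusted p = 0.00826) and by 0.61 ± 0.21 against isthmus (1.52-fold, adjusted p = 0.0479). The isthmus call ended without chief replicate 3, isthmus replicate 1 or 2, or parietal replicate 2 or 3 (adjusted p = 0.0522 to 0.183), with quantile normalization (0.0866) and with the probe set of highest median (0.126).

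Crat, the carnitine acetyltransferase that exchanges acetyl groups between carnitine and coenzyme A, had the largest difference of the shuttle. It was at 10.00, 10.21 and 10.04 on parietal arrays, while the other 6 lay between 8.05 and 9.01. The rise was 1.49 ± 0.40 against chief (2.82-fold, adjusted p = 0.0161) and 1.72 ± 0.40 against isthmus (3.29-fold, adjusted p = 0.00639). The chief call ended without chief replicate 3 (0.05), parietal replicate 2 (0.0601) or parietal replicate 3 (0.0521), and averaging its probe sets ended both calls (0.0513 and 0.0622). Leaving out chief replicate 3 and parietal replicate 1 together also ended the chief call (0.102).

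Slc25a20, the carnitine-acylcarnitine exchanger of the inner membrane, was at 11.55, 11.83 and 11.52 on parietal and 10.36, 10.29 and 11.31 on chief arrays, a rise of 0.98 ± 0.29 (adjusted p = 0.0253). This call ended without any single parietal array or chief replicate 1 or 2 (adjusted p = 0.0545 to 0.0903). The isthmus arrays, at 11.27, 10.97 and 11.47, were also below the parietal ones, with a difference of 0.40 (adjusted p = 0.337). Cpt2, the inner-membrane transferase, was at 10.52, 10.64 and 10.74 on parietal arrays, inside the range of 9.82 to 11.20 of the other 6, and was not called.

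The acyl-CoA dehydrogenases, which carry out the first oxidation of each round for different chain lengths, had the largest median difference of any role against chief (1.61), and 4 of 6 rose against each group. The 3 parietal arrays were above all chief arrays for all 6. Acadvl, for very long chains, was at 13.54, 13.37 and 13.57 on parietal arrays and at or below 12.56 on the others. It rose by 1.26 ± 0.16 against chief (2.4-fold, adjusted p = 0.000156) and by 1.23 ± 0.16 against isthmus (2.34-fold, adjusted p = 0.000163).

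Acadm, for medium chains, was at 12.29, 12.46 and 12.23 on parietal, 10.79, 10.93 and 10.61 on chief and 11.03, 11.00 and 10.91 on isthmus arrays. The groups of chief and isthmus arrays overlapped, and the parietal arrays stood clear of both. The rise was 1.55 ± 0.20 (2.93-fold, adjusted p = 0.000138) against chief and 1.35 ± 0.20 (2.54-fold, adjusted p = 0.000312) against isthmus.

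Acadl, for long chains, was graded over the 3 groups. Its signal was 10.21, 10.30 and 10.05 on chief, 11.11, 11.00 and 11.20 on isthmus and 12.13, 12.03 and 12.05 on parietal arrays, with no overlap anywhere. Only Acadl among the 37 genes showed this order without overlap, 2.7% against 0.691% of all genes. Parietal cells were higher than chief by 1.88 ± 0.21 (3.69-fold, adjusted p = 4.89e-05) and than isthmus by 0.97 ± 0.21 (1.95-fold, adjusted p = 0.00398). A weaker probe set of Acadl was above the array median on only 1 of 9 arrays, and averaging it in ended the isthmus call (0.115).

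The other dehydrogenases were dimmer and more scattered. Acads, for short chains, was at 9.09, 8.94 and 10.38 on parietal, 6.00, 7.25 and 8.18 on chief and 7.63, 9.42 and 7.89 on isthmus arrays, so that parietal and isthmus arrays overlapped. It rose by 2.33 ± 0.69 against chief, at least 4.59-fold (adjusted p = 0.0271). Acads was no longer called without chief replicate 1 (0.0884), chief replicate 2 (0.0538) or parietal replicate 3 (0.123). Acad10, a less studied family member, was at 9.07, 8.93 and 9.03 on parietal arrays, above the 8.33, 6.84 and 6.84 of chief and the 7.31, 6.22 and 6.19 of isthmus arrays. Its rise over isthmus was at least 5.25-fold (adjusted p = 0.0106), and its difference from chief was 1.67 (adjusted p = 0.0662). Acad9, which also serves in the assembly of respiratory complex I, was at 11.03, 10.89 and 11.28 on parietal arrays and between 8.93 and 10.84 on the others, with differences of 1.13 from chief (adjusted p = 0.0851) and 0.87 from isthmus (adjusted p = 0.17).

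**Figure D2:**
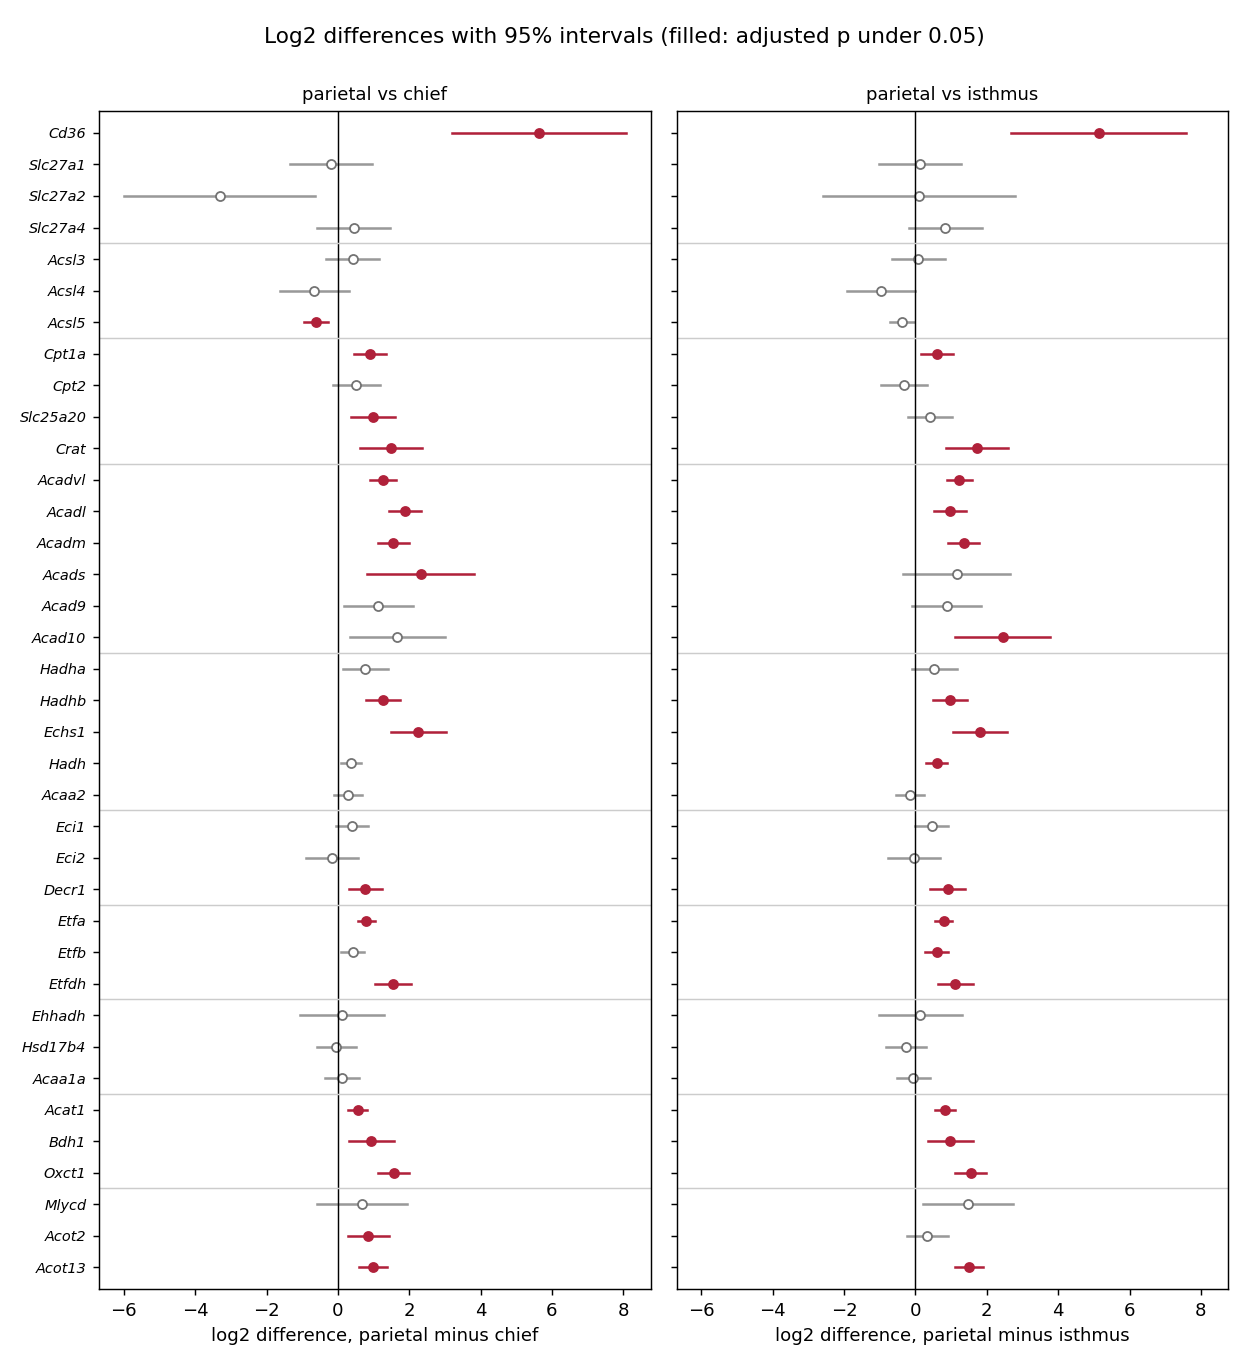
Log2 differences of the 37 genes with 95% intervals from limma, parietal minus chief on the left and parietal minus isthmus on the right, in the order of their roles. Filled symbols mark an adjusted p under 0.05, 19 genes on the left and 18 on the right, and all filled symbols but Acsl5 on the left lie above 0.

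After the first oxidation, Echs1 and Hadhb rose most. Echs1, the short-chain enoyl-CoA hydratase, was at 11.50, 11.96 and 12.21 on parietal, 8.89, 10.23 and 9.80 on chief and 10.08, 9.86 and 10.31 on isthmus arrays. All parietal arrays exceeded the rest, and chief replicate 1 was the lowest. The rise was 2.25 ± 0.35 against chief (4.76-fold, adjusted p = 0.000642) and 1.81 ± 0.35 against isthmus (3.5-fold, adjusted p = 0.00228).

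Hadhb, the thiolase subunit of the mitochondrial trifunctional protein, was at 13.13, 13.45 and 13.44 on parietal arrays and between 11.57 and 12.63 on the others. It rose by 1.26 ± 0.22 against chief (adjusted p = 0.00121) and 0.96 ± 0.22 against isthmus (adjusted p = 0.00575). Its bright second probe set differed by 1.35 and 0.97. Averaging all 3 probe sets, of which the third was much dimmer, gave 0.89 and 1.06 and ended both calls (0.266 and 0.172). Hadha, the partner subunit, was at 12.01, 12.39 and 12.05 on parietal arrays, overlapping with both other groups, and differed by 0.77 from chief (adjusted p = 0.0722) and 0.52 from isthmus (adjusted p = 0.215).

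Hadh, the hydroxyacyl-CoA dehydrogenase of shorter chains, was at 13.98, 13.95 and 14.12 on parietal arrays, just above the highest chief array at 13.94. It rose by 0.59 ± 0.13 against isthmus (1.5-fold, adjusted p = 0.00545) and differed from chief by 0.36 (adjusted p = 0.063). The other Hadh probe sets gave larger differences from chief, 0.66 and 0.97. Hadh was called higher against chief with averaged probe sets (adjusted p = 0.00818), quantile normalization (0.0149) and centred arrays (0.0187). Acaa2, the mitochondrial thiolase, lay at 12.14, 12.31 and 12.13 on parietal arrays against 11.51 to 12.44 on the others, with differences of 0.29 from chief and -0.15 from isthmus.

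Of the auxiliary enzymes for unsaturated fatty acids, only Decr1 was called. Decr1, the dienoyl-CoA reductase, was at 11.86, 11.91 and 11.94 on parietal arrays, above the 10.79 to 11.34 of the other 6. It rose by 0.77 ± 0.22 against chief (1.71-fold, adjusted p = 0.0224) and 0.90 ± 0.22 against isthmus (1.87-fold, adjusted p = 0.0087). The chief call ended without chief replicate 1 or any single parietal array (0.057 to 0.0743) and with quantile normalization (0.0512). The enoyl-CoA isomerases Eci1 and Eci2 overlapped between groups, with differences from chief of 0.39 (adjusted p = 0.199) and -0.16 (adjusted p = 0.77).

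The electron carriers rose together against isthmus, 3 of 3, and 2 of 3 rose against chief. Etfa, the alpha subunit of electron transfer flavoprotein, varied little within groups, at 14.07, 14.05 and 14.13 on parietal arrays and 13.12 to 13.41 on the others. Its rise was 0.80 ± 0.10 against chief (1.74-fold, adjusted p = 0.000175) and 0.79 ± 0.10 against isthmus (1.73-fold, adjusted p = 0.000164). Etfb, the beta subunit, was at 12.85, 12.73 and 13.08 on parietal arrays, also above the 12.14 to 12.60 of all others. It rose by 0.59 ± 0.15 against isthmus (1.51-fold, adjusted p = 0.0104), a call that ended without parietal replicate 3 (0.0584), and differed from chief by 0.41 (adjusted p = 0.064).

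Etfdh, which hands the electrons on to ubiquinone, was at 12.31, 12.72 and 12.55 on parietal, 11.11, 10.51 and 11.34 on chief and 11.33, 11.56 and 11.33 on isthmus arrays. It rose by 1.54 ± 0.23 against chief (2.91-fold, adjusted p = 0.000474) and 1.12 ± 0.23 against isthmus (2.17-fold, adjusted p = 0.00322). Another Etfdh probe set, 1458152_at, was dim on 6 of 9 arrays and had the opposite sign. Averaging the 2 ended the call against chief (0.582) and turned the difference from isthmus to -0.10 (0.934). For the other called genes with further probe sets above the median on at least 3 arrays, every such probe set kept the sign of the one used: 16 of 17 against chief and 17 of 18 against isthmus, the exception in each being that of Etfdh.

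The peroxisomal enzymes, which shorten very long and branched chains, were not called in either comparison. Ehhadh, the L-bifunctional enzyme, was at 9.41, 8.20 and 9.06 on parietal arrays and 7.98 to 9.49 on the others. Hsd17b4, the D-bifunctional enzyme, differed from chief by -0.04 (95% interval -0.59 to 0.52) and from isthmus by -0.26 (-0.82 to 0.30). Acaa1a, a peroxisomal thiolase, differed by 0.11 (-0.37 to 0.59) and -0.06 (-0.53 to 0.42). For Ehhadh the intervals were wider, 0.11 (-1.05 to 1.28) and 0.13 (-1.03 to 1.30), so a change of 2-fold lay within them.

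All 3 ketone body genes rose in both comparisons. Oxct1 encodes the succinyl-CoA transferase that commits ketone bodies to use as fuel. It was at 14.09, 14.06 and 14.21 on parietal arrays, 12.22, 12.78 and 12.69 on chief and 12.13, 13.01 and 12.56 on isthmus arrays, so the parietal arrays were more than 1 log2 unit above any other. The rise was 1.56 ± 0.20 against chief (2.94-fold, adjusted p = 0.000153) and 1.55 ± 0.20 against isthmus (2.93-fold, adjusted p = 0.000136). Its 3 other probe sets gave differences from chief of 1.52, 2.41 and 4.03, all in the same direction but unequal in size.

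Acat1, the acetoacetyl-CoA thiolase of the last step, was at 13.68, 13.37 and 13.62 on parietal arrays and 12.57 to 13.13 on the others. It rose by 0.55 ± 0.13 against chief (1.46-fold, adjusted p = 0.00868) and 0.82 ± 0.13 against isthmus (1.77-fold, adjusted p = 0.000575). The chief call ended without the intensity trend (0.118) and with chief replicate 3 and parietal replicate 1 left out together (0.0507), while its other probe sets gave larger differences from chief, 1.25 and 1.53. Bdh1, which interconverts hydroxybutyrate and acetoacetate, was at 10.63, 11.43 and 11.43 on parietal arrays against 10.03 to 10.39 on the others, parietal replicate 1 being the nearest to them. It rose by 0.94 ± 0.29 against chief (1.92-fold, adjusted p = 0.0331) and 0.97 ± 0.29 against isthmus (1.96-fold, adjusted p = 0.0257). Both Bdh1 calls ended without parietal replicate 2 (0.126 and 0.104) or 3 (0.133 and 0.111), the chief call also without chief replicate 1 (0.0787) or 2 (0.0631) and the isthmus call without isthmus replicate 1 (0.0765) or 3 (0.0556).

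Of the 3 enzymes around the pathway, 2 rose against chief and 1 against isthmus. Acot13, a thioesterase, an enzyme that releases fatty acids from coenzyme A, was at 12.99, 12.60 and 12.93 on parietal, 11.69, 11.89 and 11.96 on chief and 11.58, 11.33 and 11.12 on isthmus arrays. The 3 groups did not overlap, and the isthmus arrays were the lowest. It rose by 0.99 ± 0.18 against chief (1.99-fold, adjusted p = 0.00188) and 1.50 ± 0.18 against isthmus (2.82-fold, adjusted p = 9.61e-05). Acot2, the mitochondrial thioesterase, was at 11.44, 11.99 and 11.52 on parietal and 11.28, 10.57 and 10.57 on chief arrays, a rise of 0.84 ± 0.26 (adjusted p = 0.0347). That call ended without chief replicate 2 or 3 or parietal replicate 2 or 3 (0.0667 to 0.141), and the isthmus arrays, at 11.03, 11.48 and 11.47, overlapped with the parietal ones. Mlycd, which removes malonyl-CoA, the inhibitor of CPT1, was at 7.99, 8.77 and 8.98 on parietal arrays, above the 7.35, 6.55 and 7.41 of isthmus but overlapping with chief, and was not called (1.48 against isthmus, adjusted p = 0.0799).

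A few settings ended several of these calls at once. Without the intensity trend, Acsl5, Slc25a20, Acads, Decr1, Acat1, Bdh1 and Acot2 were no longer called against chief (adjusted p = 0.0547 to 0.118), nor Cpt1a, Hadhb, Hadh and Etfb against isthmus (0.0539 to 0.117). With quantile normalization, Decr1, Bdh1 and Acot2 were no longer called against chief (0.0512 to 0.0656), nor Cpt1a and Hadh against isthmus (0.0866 and 0.0594). The low-value filter mattered for Acot2 against chief (0.0516 without it) and Cpt1a against isthmus (0.0726), and averaging probe sets for Acot2 (0.156 against chief), Bdh1 (0.0954 against isthmus) and Cpt1a (0.0625 against isthmus). Leaving out chief replicate 3 and parietal replicate 1 together ended the calls of Decr1 (0.0748) and Acot2 (0.117) against chief and Cpt1a (0.0535) against isthmus. Other settings added calls, all in the direction already given: 21 values in 6 genes against chief and 6 in 4 genes against isthmus. A single array decided 4 of them against chief besides Slc27a2: Acad9 was called without isthmus replicate 3 (0.0113), Acad10 and Hadh without chief replicate 1 (0.0297 and 0.0108), and Hadha without chief replicate 3 (1.12, adjusted p = 0.00895). Against isthmus, Acsl5 was called lower with quantile normalization (-0.51, adjusted p = 0.0209). The 7 genes Cd36, Acadvl, Acadm, Echs1, Etfa, Oxct1 and Acot13 were called in both comparisons under every alternative run for them. Acadvl, Acadm, Echs1, Etfa and Acot13 had only 1 probe set each. Averaging or reselecting probe sets, which ended calls of other genes, could not alter their values.

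**Figure D3:**
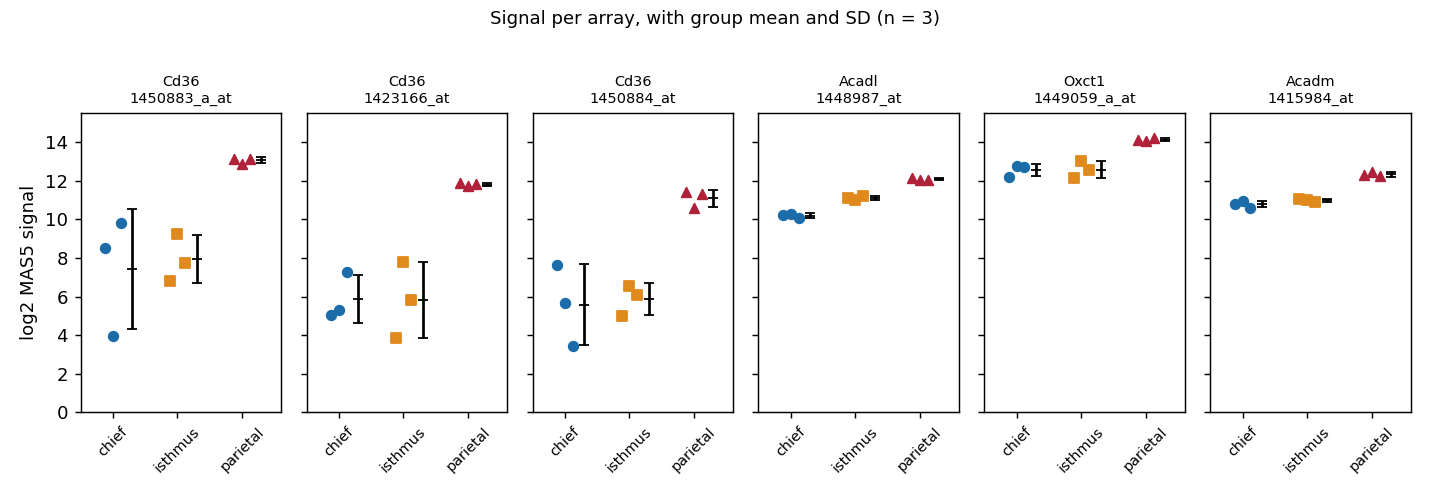
Log2 MAS5 signal on each array for the 3 Cd36 probe sets and for the probe sets used for Acadl, Oxct1 and Acadm, with bars giving the group mean and SD (n = 3). The parietal arrays are above all others in every panel, the low arrays of Cd36 are widely spread, and Acadl steps up from chief to isthmus to parietal.

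Chief and isthmus cells, both Mist1+Tomato+ and differing by the ablation of Lgr5+ cells, were compared next. Of 5 chief cell markers 4 were called lower in isthmus, as were 4 of 5 pit cell markers and 0 of 9 parietal markers, and their part in what follows was not tested. Only 1 of the 37 genes was called, higher in isthmus, and 0 were lower, where 0.391% of all genes tested were called higher and 1.26% lower. The median difference was 0.04, against 0.030 over all genes, with 21 genes above and 16 below 0. The called gene was Acadl, whose isthmus arrays (11.11, 11.00 and 11.20) all exceeded the chief arrays (10.21, 10.30 and 10.05), a difference of 0.92 ± 0.21 (1.89-fold, adjusted p = 0.0455). Leaving out any 1 of the 9 arrays ended this call (adjusted p = 0.0567 to 0.139), and over all 22 alternatives the adjusted p ran from 0.0352 to 0.518.

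The isthmus and chief arrays did not overlap for 2 genes higher and 2 lower, against 10.6% and 10.5% of all genes, and of these 4 only Acadl was called. Acaa2 was at 12.44, 12.33 and 12.27 on isthmus and 12.02, 12.19 and 11.51 on chief arrays, a difference of 0.44 (95% interval 0.04 to 0.84, adjusted p = 0.247). Acot13 was lower on every isthmus array, with a difference of -0.50 (-0.90 to -0.10, adjusted p = 0.187). Slc27a2 was lower on every isthmus array by the values given above, with a difference of -3.41 (-6.09 to -0.73, adjusted p = 0.183). Cpt2 differed by 0.85 (0.20 to 1.50, adjusted p = 0.171), with chief replicate 2 at 10.63 overlapping with isthmus replicate 1 at 10.59. Cd36, with its wide spread, differed by 0.50 (-1.93 to 2.94, adjusted p = 0.861).

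**Figure D4:**
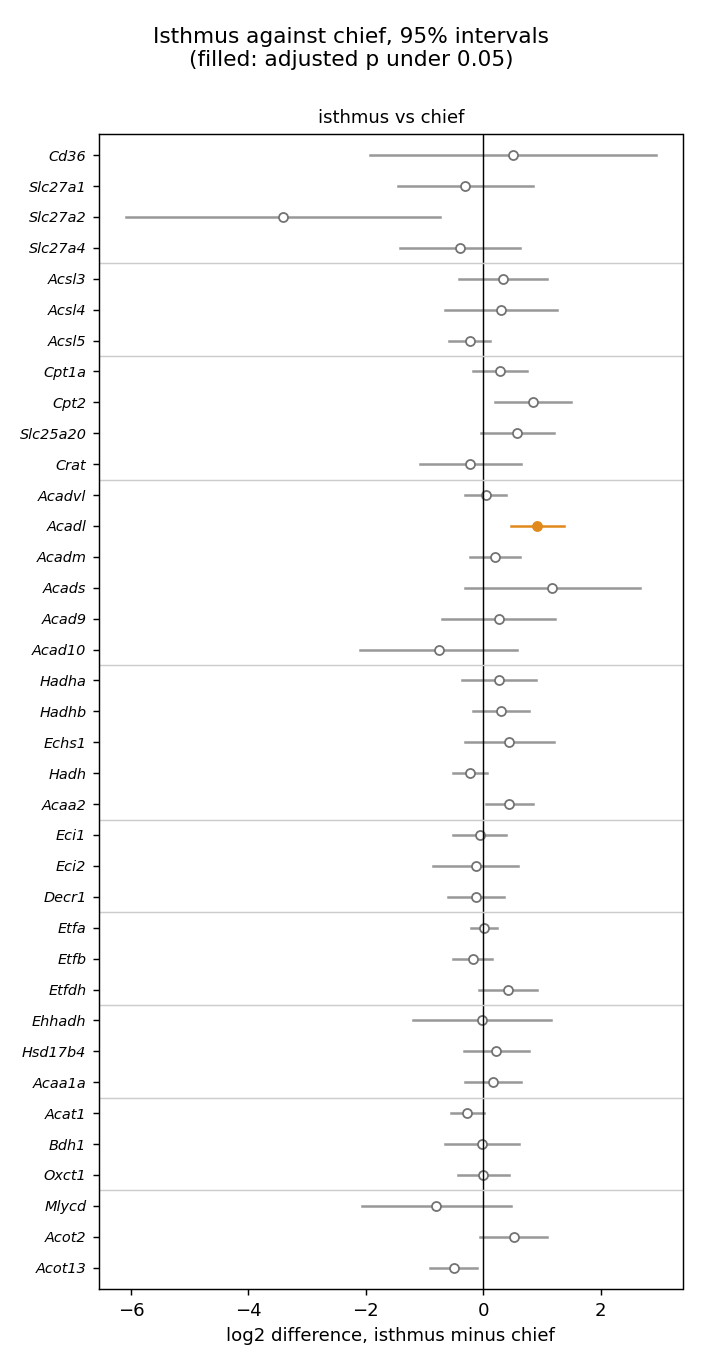
Log2 differences of the 37 genes, isthmus minus chief, with 95% intervals from limma. The filled symbol is Acadl at 0.92, the only gene with an adjusted p under 0.05, and Slc27a2 at -3.41 has one of the widest intervals.

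Further genes of fatty acid oxidation were split in direction. Of 24 tested, 8 rose and 3 fell in parietal cells against chief and 7 rose and 4 fell against isthmus. Fabp1, a cytosolic fatty acid binding protein of liver and gut, was at 12.10, 12.55 and 11.34 on parietal arrays and at or below 7.93 on all others. It was above the array median on 0 chief, 1 isthmus and 3 parietal arrays, so it passed the low-value filter only through the parietal arrays. Its p-values are therefore not independent of that filter. Fabp1 was at least 44.2-fold higher than chief (adjusted p = 9.04e-05) and at least 39.6-fold higher than isthmus (adjusted p = 0.000679), the latter 60.8-fold without isthmus replicate 3. Fabp3, the muscle binding protein, and Acadsb, a dehydrogenase of branched short chains, were named after their values were seen. Fabp3 was at 14.35, 14.20 and 14.34 on parietal arrays, with rises of 3.67 over chief and 3.03 over isthmus (adjusted p = 1.48e-05 and 5.06e-05). Acadsb rose by 2.57 and 3.58 (adjusted p = 0.000678 and 5.63e-05).

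Other genes of this list fell. Fabp2, the intestinal binding protein, was at 8.60, 8.76 and 1.79 on parietal arrays and between 11.36 and 12.26 on the others. It fell at least 17.5-fold against chief (adjusted p = 0.00939) and at least 17.3-fold against isthmus (adjusted p = 0.00816), and these folds were 9.15 and 9.02 without parietal replicate 3. The chief call ended without the intensity trend (0.0551). Fabp4, the binding protein of fat cells and capillaries, was at 6.20, 4.77 and 6.85 on parietal and 9.02, 9.94 and 10.05 on isthmus arrays, a fall of at least 10.5-fold (adjusted p = 0.00202). Its difference from chief was -1.88 (adjusted p = 0.0755). Acot1, a cytosolic thioesterase, was at 0.31, 4.88 and 1.52 on parietal arrays, all dim, against 7.42, 6.28 and 9.32 on chief and 7.66, 7.63 and 8.47 on isthmus arrays. It fell at least 3.57-fold against chief (adjusted p = 0.00566) and at least 4.24-fold against isthmus (adjusted p = 0.00364). The chief fold was 2.02 without chief replicate 3 and 5.79 without chief replicate 2, and the chief call ended with chief replicate 3 and parietal replicate 1 left out together (0.0709). Between isthmus and chief, 1 of the 24 was called, Fabp5, with a difference of -0.46 (adjusted p = 0.0285). This call ended without chief replicate 1 or 3 or isthmus replicate 1 or 2 (0.0633 to 0.118), quantile normalization turned the difference to 0.07, and over all alternatives the adjusted p reached 0.609.

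Of 20 tested transcription regulators of the pathway, 6 rose and 4 fell against chief and 8 rose and 4 fell against isthmus. The 4 that fell against chief were Hnf4a (-2.02, adjusted p = 0.00017), Nrf1 (-2.02, 0.0282), Rxra (-1.23, 0.038) and Hnf4g (-3.44, 0.0463). The Hnf4a call held under all 22 alternatives, while Nrf1, Rxra and Hnf4g were called in 14 of 22, 10 of 22 and 6 of 20. Hnf4g was dim on all 3 parietal arrays. Ppara, Ppargc1a and Esrrb, given below, were among the 6 that rose against chief. The others were Ppargc1b (1.86, adjusted p = 0.000301), Esrrg (1.52, 0.00166) and Klf15 (1.76, 0.0468). Ppargc1b and Esrrg stayed called under all 22 alternatives, and Klf15 in 11 of 22. Hnf4a, Nrf1, Rxra, Ppargc1b and Esrrg were named after their values were seen. Ppara, the fatty acid sensing nuclear receptor, was at 9.81, 8.81 and 10.34 on parietal, 5.80, 6.55 and 7.78 on chief and 5.75, 5.99 and 8.88 on isthmus arrays, dim on several of the latter. It rose at least 6.73-fold over chief (adjusted p = 0.0246) and at least 6.26-fold over isthmus (adjusted p = 0.0281), the latter 12-fold without isthmus replicate 3. Both calls ended without parietal replicate 1 (0.0706 and 0.0778) or 3 (0.0996 and 0.109). The chief call also ended without chief replicate 1 (0.0787) or 2 (0.0602), and the isthmus call without isthmus replicate 1 (0.104) or 2 (0.0937).

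Ppargc1a, the coactivator of mitochondrial biogenesis, was at 11.51, 11.01 and 12.13 on parietal, 9.53, 8.67 and 8.51 on chief and 10.27, 9.84 and 8.91 on isthmus arrays. It rose by 2.65 ± 0.44 (adjusted p = 0.000872) and 1.88 ± 0.44 (adjusted p = 0.00657), the latter becoming 0.41 with the probe set of highest median (0.669). Esrrb, an estrogen-related receptor, was at 8.70, 9.25 and 8.23 on parietal arrays and dim on every chief and isthmus array. It was tested only because of the parietal arrays, so its p-values are not independent of that filter. Esrrb rose at least 4.58-fold against chief (adjusted p = 0.0148) and at least 5.95-fold against isthmus (adjusted p = 0.00154), the chief call ending without parietal replicate 1 (0.0544) or 2 (0.0741). Of 16 further target genes of peroxisome proliferator-activated receptors with a probe set, only 7 passed the low-value filter. Of these 7, 2 rose against each group, where 10.7% and 12.2% of all genes tested were called higher. Plin4, called against isthmus, was dim on every chief and isthmus array. It too was tested only because of the parietal arrays, and its call ended without any single parietal array (0.0774 to 0.127). Pdk4, the kinase that shuts off pyruvate dehydrogenase, rose by 1.78 against chief (adjusted p = 0.00649) and differed by 0.36 from isthmus (adjusted p = 0.551).

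The downstream mitochondrial genes moved nearly as a block. All 17 tested genes of the tricarboxylic acid cycle rose in parietal cells against each group, with median differences of 1.13 and 0.96. Fh1, fumarate hydratase, rose by 1.45 against chief and 1.21 against isthmus (adjusted p = 6.18e-05 and 0.000195). Dld, the shared lipoamide dehydrogenase, rose by 1.82 and 1.21 (adjusted p = 0.000217 and 0.00285), differences that became -0.04 and -0.23 when its probe sets were averaged. Of 38 oxidative phosphorylation genes, 30 rose against chief and 37 against isthmus and 0 fell, with medians of 0.72 and 0.91. Uqcrfs1, the iron-sulfur subunit of complex III, rose by 1.90 and 1.45 (adjusted p = 2.82e-05 and 0.00016). Between isthmus and chief, Ndufa1 and Uqcrb, subunits of complexes I and III, were called lower, with differences of -1.31 (adjusted p = 0.00608) and -0.49 (adjusted p = 0.031). Ndufa1 was no longer called without the intensity trend (0.125). Uqcrb was no longer called without chief replicate 1 (0.101), isthmus replicate 1 (0.117) or isthmus replicate 2 (0.083), and quantile normalization reduced its difference to -0.02 (0.922).

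**Figure D5:**
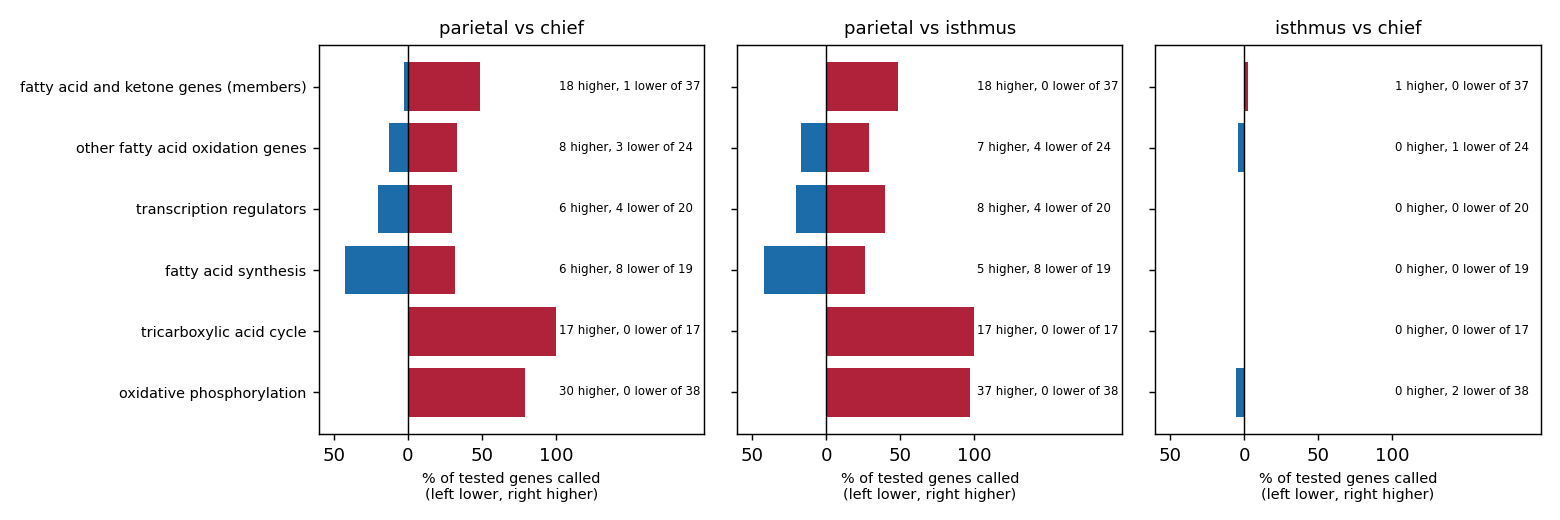
Share of the tested genes of each list called lower (bars to the left) or higher (bars to the right) at an adjusted p under 0.05, in percent, for the 3 comparisons, with the counts written beside the bars. In both parietal comparisons all 17 tricarboxylic acid cycle genes are higher. The fatty acid synthesis list also holds lipases such as Lpl and Mgll. It has 8 of 19 genes lower in both, with 6 higher against chief and 5 higher against isthmus. In isthmus against chief none of the 6 lists drawn has more than 2 calls.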

How the data were processed

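Total RNA of 9 samples was labelled with biotin and hybridised to 1 Affymetrix mouse array each, per the labels' protocols. The deposited values are log2 signals made by the authors with MAS5, per the submitters' processing notes. The labels state neither its version nor the step to the log scale, and base 2 was settled from the values: it gave a trimmed mean signal of 496 to 497 on every array, while 1.99% to 3.91% of an array's values were exactly 0, read as a floor.

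Of 45037 probe sets, 34945 were paired with 1 gene by the platform annotation, 932 with several and 9160 with none. A RefSeq table of GRCm38.p6 matched 34741 by Entrez identifier and changed 0 symbols. Genes whose signal exceeded the median of their array on 3 or more of the 9 arrays were tested. limma 3.58.1 in R 4.3.3 fitted 3 group means over all 9 arrays (lmFit, eBayes with an intensity trend), two-sided, with Benjamini-Hochberg adjustment over all 11006 genes, and called genes at an adjusted p under 0.05. The procedure was run on simulated data with independent normal noise and no floor on low values. That run therefore does not cover the floor or any effect shared by the genes of an array. Folds written "at least" set each dim array to its own median. The number of arrays limits the precision.

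All 38 genes may be named. From each further list up to 4 called genes with the largest difference were named, besides Ppara, Ppargc1a, Pdk4, Atp4b and Cblif, and some items are not reported here. The genes and lists were chosen with earlier results of these data known. In all, 22 alternatives were tried. Protein identity within enzyme families was planned and not run, since protein sequences were not used here.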

Additional observations from a re-analysis of the deposited data

How the results depend on the processing

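The calls of the fatty acid and ketone genes were recomputed under 22 alternatives. Against chief, 371 of 416 recomputed values of called genes kept direction and call, 45 kept the direction alone and 0 reversed. Against isthmus these were 368, 24 and 1 of 393. Genes called under every alternative run for them numbered 9 against chief and 10 against isthmus. The settings that average or reselect probe sets could not change the values of genes with only 1 probe set. The count of calls against chief was 12 to 20 with 1 replicate left out, and 15 to 18 against isthmus. Between isthmus and chief it was 0 with any 1 replicate left out, with quantile normalization, with centred arrays, without the low-value filter, with averaged probe sets, without the intensity trend, with only the groups compared, and with chief replicate 3 and parietal replicate 1 left out together. It stayed 1 with 16 or 64 added to the signal, the stricter filter, the probe set of highest median and robust eBayes. Averaging a gene's probe sets reversed Etfdh against isthmus (-0.10) and Dld against chief (-0.04) and isthmus (-0.23), and quantile normalization reversed Fabp5 between isthmus and chief (0.07). Of 73 uncalled differences, 26 changed sign under some alternative. Promoter counts of the full peroxisome proliferator element were 0 in either window, and 6 for its core hexamer.

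Same-numbered arrays of different groups correlated only weakly, at -0.037 to 0.073 over 9 pairs, and 8 of 18 correlated best with their own number. Between isthmus and chief the same-numbered pairs gave 0.035, 0.039 and 0.073, against -0.048 to 0.010 for pairs with different numbers. With the replicate number as a block the counts were 19, 18 and 0, the first with Acot2 lost (0.0522) and Hadha gained (0.048). Limits are 3 arrays per group, no detection calls or scanner files used here, dim arrays for Cd36, Slc27a2, Acads, Acad10 and Ppara, and saturation that could not be examined for the brightest probe sets.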

Other observations

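Fatty acid synthesis and lipid storage genes were split in parietal cells. Of 19 tested, 6 rose and 8 fell against chief and 5 rose and 8 fell against isthmus, with median log2 differences of -0.88 and -1.25, and 0 of 19 were called between isthmus and chief by limma. Elovl5, which elongates polyunsaturated fatty acids, was at 5.39, 4.03 and 4.21 on parietal arrays, all dim, against 9.82 to 11.64 on the other 6. It fell at least 34.6-fold against chief (adjusted p = 1.02e-05) and at least 32.7-fold against isthmus (adjusted p = 9.36e-06). Scd1, the stearoyl-CoA desaturase, was at 6.10, 0.89 and 0.00 on parietal, 8.30, 7.23 and 13.20 on chief and 9.60, 8.44 and 8.41 on isthmus arrays. It fell at least 12.6-fold against chief (adjusted p = 0.00595) and at least 7.45-fold against isthmus (adjusted p = 0.0096), the isthmus call ending with 64 added to the signal (0.0663). The chief fold was 3.59 without chief replicate 3, 19.6 without chief replicate 1 and 28.4 without chief replicate 2. Mgll, the monoacylglycerol lipase, fell at least 10-fold against chief (adjusted p = 0.00286).

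The 2 genes of this list that follow were named after their values were seen. Acacb, the acetyl-CoA carboxylase that makes the malonyl-CoA of the outer mitochondrial membrane, was at 12.01, 12.28 and 12.16 on parietal arrays against 8.40 to 10.89 on the others. It rose by 2.78 against chief (adjusted p = 0.000642) and 2.01 against isthmus (adjusted p = 0.00427), and averaging its probe sets ended both calls (0.0729 and 0.0715). Lpl, the lipoprotein lipase that frees fatty acids from circulating triglyceride, was at 13.63, 13.70 and 13.85 on parietal arrays against 8.62 to 11.92 on the others. It rose by 2.40 and 3.62 (adjusted p = 0.00539 and 0.000301), the rise over isthmus being 12.3-fold, 7.37-fold without isthmus replicate 1 and 19.9-fold without isthmus replicate 2.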
